A study of Mus musculus with 3 samples.

Results

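The 82 mouse histone genes with a protein-coding transcript were described in polyadenylated RNA of macrophages, out of 55536 annotated genes, 21951 of them protein coding. They were found by symbol: names beginning with Hist1h to Hist4h, the genes of the histone clusters, and names beginning with H2af, H3f3 or H1f, the histones encoded outside the clusters. The first set, called replication-dependent here, has 67 genes and the second, called replacement histones, has 15. The cells were macrophages that had been differentiated from bone marrow of the inbred mouse strain C57BL/6J, and the 3 samples form a single group. Per the labels, each culture received 100 ng/ml lipid A for 12 hours, was washed and left for 12 hours, and received 100 ng/ml lipid A for a final 180 minutes. Lipid A is the fatty part of bacterial lipopolysaccharide. The agent is called lipoprotein A, a protein, elsewhere in the labels, and the conflict is left as it stands. Sex and age were not collected. The labels number the samples as biological replicates 1, 2 and 3 and give a single donor record for all of them.

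Histones H2A, H2B, H3 and H4 form the protein core around which nuclear DNA winds, and the linker histone H1 binds where DNA enters and leaves that core. The replication-dependent genes supply histones while DNA is copied. Their mRNAs are known as the class of animal mRNA that normally carries no poly(A) tail: the transcript is cut just behind a short stem-loop, which the stem-loop binding protein Slbp holds. Replacement histones are made throughout the cell cycle, typically from spliced, polyadenylated mRNAs, and they are known as the main supply of new histones in cells that no longer divide. In the set so named here, 8 of the 15 genes are annotated as spliced. H1f0 and H2afx are among those annotated with 1 exon. A library of polyadenylated RNA is therefore meant to read replacement histone mRNA, and replication-dependent genes where their mRNA carries a tail. Tails were not measured here, so the levels below do not show how much of a gene's mRNA carried one. RNA without such selection was not analysed here, so the total amount of each histone mRNA cannot be told from these levels.

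The stem-loop is shown first, because it divides the family. It was searched for in GENCODE M21 transcripts as a 16-base hairpin with 6 paired positions and a loop of 4 bases, on the transcript strand. It was present in 46 of the 67 replication-dependent genes and in 1 of the 15 replacement genes, H2afx. Among 21819 other protein-coding genes, 26 (0.119%) held a match on the transcript strand and 31 (0.142%) on the opposite strand. The sites below are from the genes with a stem-loop that had the highest levels, with the stem-loop in capitals and its flanks in lower case, read 5′ to 3′ on the transcript strand (mm10).
Hist2h2aa2, chr3:96239784-96239799, minus strand: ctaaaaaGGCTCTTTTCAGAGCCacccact
Hist2h2aa1, chr3:96246032-96246047, plus strand: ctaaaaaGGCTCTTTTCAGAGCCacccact
Hist1h1c, chr13:23739512-23739527, plus strand: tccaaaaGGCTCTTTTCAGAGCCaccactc
Hist3h2a, chr11:58955172-58955187, plus strand: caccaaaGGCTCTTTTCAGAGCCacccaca
Hist1h4i, chr13:22040966-22040981, minus strand: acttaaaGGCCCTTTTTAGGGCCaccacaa
H2afx, chr9:44335240-44335255, plus strand: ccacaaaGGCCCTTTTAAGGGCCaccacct
The form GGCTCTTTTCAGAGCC was shared by 26 genes of types H1, H2A, H2B and H3. The H4 genes used others, with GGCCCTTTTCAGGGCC in 7 of them, and the form of Hist1h4i was found in Hist2h4 also. That of H2afx was found in no other gene of the set.

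The second element is the hexamer AATAAA or ATTAAA, the usual signal for cleavage and polyadenylation. It was searched for in the last 50 bases of annotated protein-coding transcripts, on the transcript strand. It was present in 10 of the 15 replacement genes, in 17 of the 67 replication-dependent genes and in 78.1% of the other protein-coding genes. The sites of 5 genes are shown because they stand on both sides of the family; the hexamer is in capitals.
H3f3b, chr11:116021999-116022004, minus strand: ataggccttacaAATAAActagtaagtttg
H2afz, chr3:137866897-137866902, plus strand: ctctgcttactaATTAAAcagtgcatctgt
Hist1h1c, chr13:23740342-23740347, plus strand: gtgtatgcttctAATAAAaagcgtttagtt
Hist3h2a, chr11:58956797-58956802, plus strand: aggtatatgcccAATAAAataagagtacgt
Hist2h2be, chr3:96223717-96223722, plus strand: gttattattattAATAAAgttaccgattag
In Hist1h1c the stem-loop ended 840 bases before the annotated transcript end and the hexamer 20 bases before it, so this annotated transcript runs through the stem-loop to a second end. Hist3h2a had the same layout, with 1643 and 28 bases. A match or its absence describes the annotated letters only and shows no use of a site.

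Levels are TPM, which divide a gene's counts by the effective length given for it and by the library's depth. The effective length is below the annotated length, most of all in short genes. Hist1h4k has 312 annotated bases and effective lengths of 77.44, 68.29 and 60.43 bases in replicates 1, 2 and 3. Hist1h1c has 1560 annotated bases and 1299.60, 1280.41 and 1271.18 effective ones. The TPM of short genes are thus raised beyond what their annotated length implies. A gene was called expressed when it had at least 1 TPM in all 3 replicates, a level reached by 44.4% of protein-coding genes. It was reached by 8 of the 15 replacement genes and by 13 of the 67 replication-dependent genes. Of the replication-dependent genes, 20 had no count in any replicate and 35 had no more than 3 counts over all replicates. The 3 libraries held 23377091, 36824106 and 37685712 counts on genes in replicates 1, 2 and 3. For a gene listed at 0 the upper limit is thus 3 counts, which is 0.128, 0.0815 and 0.0796 CPM (counts scaled to library size). Counts of replicate pairs differed by more than sampling noise. Squared deviations divided by the variance expected from counting had a median over genes of 5.42 to 5.86 and a mean of 69.3 to 73.6. With a single group there is no contrast between conditions, and the smallest p that exact sign flips of 3 values allow is 0.25 (two-sided), so levels are given with their SD and no test.

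All histone genes together made up 2650 ± 299.95 TPM (SD, n = 3). Replacement genes gave 2367.58, 1938.92 and 2017.67 TPM in replicates 1, 2 and 3, and replication-dependent genes 579.98, 408.80 and 637.59 TPM. Every replicate thus had more TPM in the 15 replacement genes than in the 67 cluster genes, and the replacement share was 79.6% ± 3.35 of histone TPM. The median level in log2(TPM + 1) was 3.13 ± 0.13 for replacement genes, 0.08 ± 0.07 for replication-dependent genes and 0.42 ± 0.03 for all protein-coding genes. The difference between the medians of both histone classes was 2.99, 3.27 and 2.91 in replicates 1, 2 and 3, or 3.06 ± 0.19. Its size depended on single genes at the middle of the short replacement list and on how genes near 0 were treated. It was 1.97 with H2afx, the replacement gene with a stem-loop, counted on the other side, 5.16 without testis- and germ cell-specific genes, and 5.71 with a pseudocount of 0.1; replacement genes had the higher median each time.

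**Figure D1:**
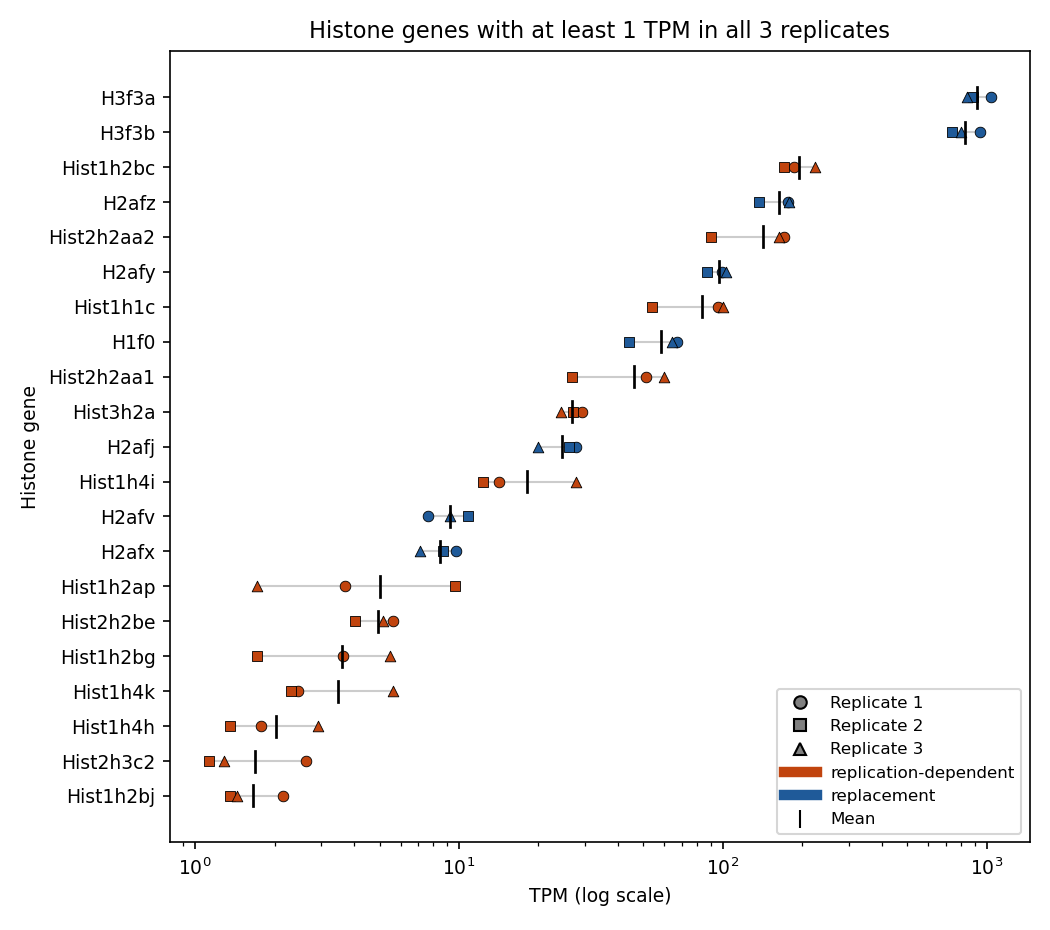
TPM (log axis) of the 21 histone genes with at least 1 TPM in all 3 replicates, in order of their mean (black tick), with 1 point per replicate; grey lines span the replicates. H3f3a and H3f3b lie apart at the top, above 739 TPM in every replicate, and 7 of the 13 replication-dependent genes lie below every plotted replacement gene by mean.

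The highest histone genes were H3f3a and H3f3b, which encode the same replacement protein, H3.3. H3f3a (chr1:180800832-180813943) had 1034.33, 884.37 and 839.04 TPM in replicates 1, 2 and 3, with a mean of 919 ± 102 TPM. H3f3b (chr11:116021912-116027962) had 944.85, 739.36 and 796.98 TPM, with a mean of 827 ± 106. The ranges of the pair overlapped, though H3f3a was the higher within each replicate, with a log2 ratio of 0.15 ± 0.09. Most of H3f3a came from a transcript of 888 bases at 62.9% ± 4.37 of its TPM, followed by one of 724 bases at 23.0% ± 5.90 and one of 2841 bases at 13.3% ± 1.89. Of these only the 2841-base form has the hexamer in its last 50 annotated bases. In H3f3b, 94.4% ± 1.46 came from a transcript of 1993 bases.

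Together H3f3a and H3f3b took 99.8% ± 0.05 of all H3 TPM. The 12 replication-dependent H3 genes summed to 5.03, 2.51 and 3.12 TPM. A single one of them was expressed, Hist2h3c2, with 2.64, 1.13 and 1.29 TPM, and 5 had no count. H3 as a whole was 66.1% ± 3.91 of histone TPM, the largest share of any type. Nearly all H3 TPM thus lay in the genes of H3.3.

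H2A was divided between both classes. H2afz encodes H2A.Z, a variant found at gene promoters, and had 176.01, 137.12 and 177.90 TPM, with a mean of 164 ± 23.0. H2afv, which encodes a near-identical second H2A.Z protein, was far lower at 7.63, 10.85 and 9.27 TPM. The log2 ratio of H2afz to H2afv was 4.15 ± 0.45. H2afy encodes macroH2A1, a histone with a large non-histone domain, and had 99.36, 86.91 and 102.95 TPM. Its 2046-base coding transcript took 49.8% ± 5.34 of this and the 1933-base one 11.4% ± 3.34, and a non-coding transcript of 889 bases took 32.2% ± 3.56. H2afj had 27.74, 26.18 and 19.95 TPM, and H2afx, whose product is phosphorylated at DNA breaks, had 9.71, 8.67 and 7.11 TPM. These replacement genes kept their order in all 3 replicates except the neighbours H2afv and H2afx, whose ranges overlapped.

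On the cluster side of H2A, Hist2h2aa2 had 170.47, 90.44 and 163.64 TPM and Hist2h2aa1 had 51.15, 26.75 and 59.80 TPM. In these values both were lowest in replicate 2. The pair lies on chromosome 3 as inverted copies, at chr3:96239749-96240276 and chr3:96245497-96246082, and every 31-base sequence of either gene occurs in other transcripts, including those of the antisense genes Gm20632 and Gm20633. Their counts can therefore be split between them in more than one way. The tables made directly from FASTQ files gave 108.81, 43.80 and 72.12 TPM for Hist2h2aa2 and 35.72, 37.19 and 98.17 TPM for Hist2h2aa1. The order of the pair thus turned in replicate 3. Hist2h2aa1 was lowest in replicate 1 in these values, which were not rescaled between replicates. For Hist1h1c the FASTQ-made tables gave 62.09, 44.40 and 92.66 TPM, against 96.19, 53.96 and 100.13 TPM in the alignment-made tables. That gap was widest in replicate 1. The part of the split in the replicate order of Hist2h2aa1 was not tested. Their sum, which does not depend on the split within the pair, was 187 ± 60.8 TPM, or 35.1% ± 6.55 of H2A TPM. In the FASTQ-made tables the sum was lower, at 132 ± 46.0 TPM. Gm20632 and Gm20633 stood at 1.91 and 1.06 TPM on average, and Gm20634, which overlaps Hist2h2aa1 on the same strand, at 4.55 TPM. Among the other expressed cluster H2A genes, Hist3h2a had 29.14, 27.02 and 24.29 TPM and the narrowest replicate range of the cluster genes above 10 TPM. Hist1h2ap had 13, 53 and 9 counts and shares 93.4% of its 31-base sequences, so its 3.69, 9.67 and 1.72 TPM are uncertain. All cluster H2A genes together were 41.7% ± 4.56 of H2A TPM.

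No replacement gene exists in this set for H2B, and Hist1h2bc alone carried most of it. Hist1h2bc (chr13:23684199-23692908) was the highest cluster gene, with 186.47, 170.73 and 223.42 TPM, 194 ± 27.0 on average. That range overlapped the range of H2afz. It was 93.5% ± 1.36 of H2B TPM. Next came Hist2h2be with 5.64, 4.02 and 5.14 TPM, Hist1h2bg with 3.62, 1.71 and 5.49 TPM, and Hist1h2bj with 2.16, 1.35 and 1.44 TPM. The log2 ratio of Hist1h2bc to Hist2h2be was 5.30 ± 0.22. Hist1h2bj rests on 20.9 counts over all replicates and, like Hist1h4m below, was named after its values were seen.

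H4 also has cluster genes only, and they were low. Their sum was 19.85, 17.05 and 43.51 TPM, with replicate 3 above the others. Hist1h4i made up 69.1% ± 4.65 of it, with 14.19, 12.30 and 27.75 TPM. Hist1h4k (2.45, 2.31 and 5.63 TPM) and Hist1h4h (1.78, 1.35 and 2.92 TPM) were expressed by the 1 TPM rule but rest on 16.1 and 27.7 counts in all. Hist1h4m reached 3.88 TPM in replicate 3 and 0 in replicate 2 and was not called. H4 was 1.01% ± 0.54 of histone TPM, against 66.1% for H3, its partner in the same tetramer.

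Of the linker histones, Hist1h1c, which encodes H1.2, and the replacement gene H1f0, which encodes H1.0 and is known to accumulate in resting cells, were the expressed members. Hist1h1c had 96.19, 53.96 and 100.13 TPM and H1f0 had 67.10, 44.17 and 63.89 TPM. Both were lowest in replicate 2, and their ranges overlapped across replicates while Hist1h1c was the higher within each, with a log2 ratio of 0.49 ± 0.18. They took 58.1% and 41.5% of H1 TPM. Of the other 5 cluster H1 genes, 1 had no count and 4 reached at most 0.19 TPM in any replicate.

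**Figure D2:**
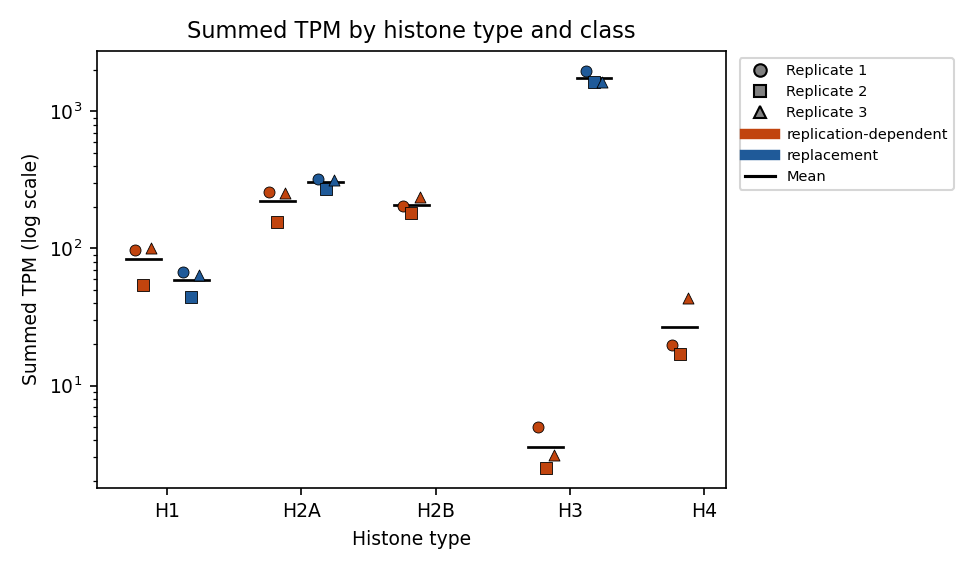
Summed TPM (log axis) of each histone type, split by class, with 1 point per replicate and a line at the mean. Replacement H3 stands at 1746 TPM on average against 3.55 TPM for replication-dependent H3, while the classes of H2A stand at 303 and 221 TPM and those of H1 at 58.6 and 83.8 TPM.

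Cluster expression was concentrated in few genes. The 5 highest, Hist1h2bc, Hist2h2aa2, Hist1h1c, Hist2h2aa1 and Hist3h2a, held 92.0%, 90.2% and 89.6% of replication-dependent TPM in replicates 1, 2 and 3. By locus, 8 of the 54 genes of the large cluster on chromosome 13 were expressed, 4 of 10 on chromosome 3, 1 of 2 on chromosome 11 and 0 of 1 on chromosome 6. The histones described as specific to testis or germ cells were not detected or nearly so: Hist1h1t, Hist1h2aa and Hist1h2ba had no count, and neither did H1fnt, H2afb1, H2afb2 and H2afb3.

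The annotated 3′ ends of the cluster genes were then set beside their levels. Of 23 genes whose annotated transcript runs at least 100 bases past the stem-loop, 5 were expressed, and they included Hist1h1c, Hist3h2a and Hist1h4i. Of 23 whose transcript ends within 100 bases of it, 5 were also expressed, and they included Hist2h2aa1 and Hist2h2aa2, which end 35 bases past it. The first group held 25.7% of replication-dependent TPM and the second 36.8%. The 3 spliced models without a stem-loop, Hist1h2bc, Hist1h2bq and Hist1h2br, held 35.9% together, nearly all of it in Hist1h2bc. Hist2h2be is annotated as a single exon of 2620 bases with no stem-loop match. In 17 genes the model stops within 50 bases of the stop codon, so the region where a stem-loop would lie is not annotated; 1 of these, Hist1h4k, was expressed. At 1 TPM the count of expressed genes was the same for long and short ends, 5 of 23 each. This tie depends on TPM, which divides counts by effective length. Of the short ends, Hist1h2ap, Hist1h4h and Hist1h2bj were called on 75, 27.7 and 20.9 counts over all replicates. Of the long ends, Hist1h2be and Hist1h2ac had 90.8 and 55.8 counts and were not called. The tie therefore does not show equal levels at both kinds of end. The hexamer was present in 5 of the 13 expressed cluster genes and in 7 of the 8 expressed replacement genes; H2afy lacked it. Transcripts of at least 1000 bases gave 55.9%, 63.5% and 56.2% of replication-dependent TPM in replicates 1, 2 and 3. This share rests on the 1156-base Hist1h2bc: with a minimum of 1500 bases it was 21.7% on average, against 58.5%.

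**Figure D3:**
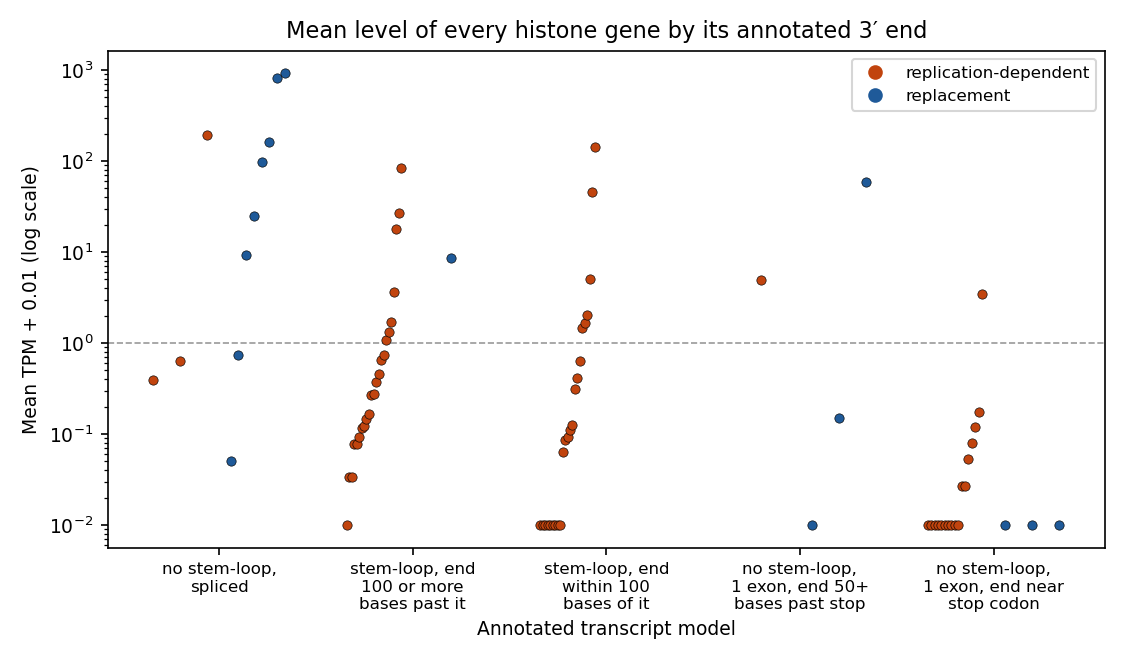
Mean TPM plus 0.01 (log axis) of all 82 histone genes, placed by their annotated 3′ end; the dashed line marks 1 TPM and genes with no count lie at 0.01. High and low genes occur in each stem-loop group, while most single-exon models that stop near the stop codon lie on the floor.

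The deposited tables hold counts assigned to a gene also where its sequence is not unique, and this weighs on cluster genes more than on replacement genes. Of the 13 expressed cluster genes, 8 share at least 50% of their 31-base sequences with other genes, against 0 of the 8 expressed replacement genes. Hist1h1c shares 11.4%, Hist1h2bc 33.5%, Hist3h2a 32.1% and Hist1h4i 35.6%; Hist3h2a lies on the same strand as Trim17 and shares with it. H2afz shares 42.3%, the most of any expressed replacement gene. The FASTQ-made tables gave 8 expressed replacement genes and 10 expressed cluster genes. The ratio of FASTQ-made to alignment-made mean TPM ranged from 0.765 to 0.984 for the expressed replacement genes, with a median of 0.856, and from 0.529 to 1.82 for the expressed cluster genes, with a median of 0.796. Over all expressed protein-coding genes the median was 0.86.

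**Figure D4:**
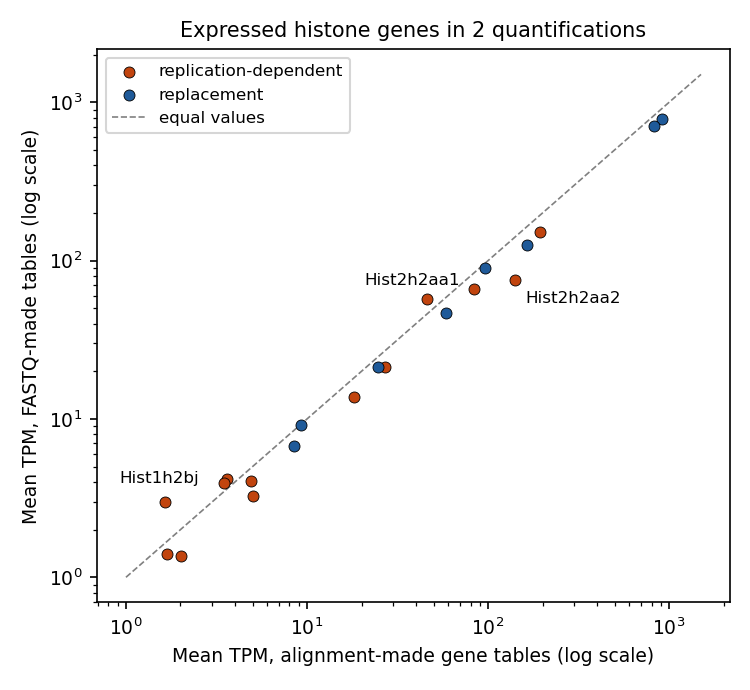
Mean TPM of the 21 expressed histone genes in the alignment-made gene tables (horizontal) and the FASTQ-made transcript tables (vertical), both on log axes, with a dashed line of equal values. Replacement genes lie below the line, from 0.984 down to 0.765 (H2afz) of the horizontal value. Cluster genes lie on both sides, from 0.529 (Hist2h2aa2) to 1.82 (Hist1h2bj), with Hist2h2aa1 at 1.24.

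Replicates were compared on log2 CPM after scaling by the trimmed mean of M-values, for genes passing a filter on low counts. Of the 11992 genes kept, 10.4% ranged at least 2-fold from the lowest to the highest replicate. Among histone genes the counts were 7 of 12 kept cluster genes and 1 of 9 kept replacement genes. Genes at lower levels ranged further: 4.2% of all genes with a mean of at least 3 log2 CPM ranged 2-fold and 22.7% of those below. Above that level the counts were 2 of 6 cluster genes and 0 of 6 replacement genes, and below it 5 of 6 and 1 of 3. The median range was 2.08-fold for kept cluster genes, 1.31-fold for kept replacement genes and 1.28-fold for all kept genes.

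Of the cluster genes at 1 TPM in all replicates, those that ranged at least 2-fold were Hist1h2bg at 2.94-fold, Hist2h3c2 and Hist1h4i at 2.26-fold, Hist2h2aa1 at 2.23-fold and Hist2h2aa2 at 2.03-fold. Hist1h2bg and Hist2h3c2 rest on 83.8 and 78.6 counts over all replicates. They share 56.3% and 64.2% of their 31-base sequences with other genes, so their ranges are uncertain. Hist2h2aa2 fell below 2-fold when libraries were scaled by total counts alone. Hist1h1c ranged 1.90-fold, Hist1h2bc 1.34-fold and Hist3h2a 1.20-fold. Outside the naming rule, and chosen after their values were seen, the cluster genes Hist2h3c1 and Hist1h2ac ranged 2.62-fold and 2.13-fold. The replacement gene H2afy2 ranged 2.54-fold, and all of these genes were at low levels. Hist2h3c1 shares 100% of its 31-base sequences and had 0 TPM in all replicates of the FASTQ-made tables. Its range is therefore uncertain, though it is counted among the ranging genes and those lowest in replicate 2. Replicate 2 was the lowest for 10 of the 12 kept cluster genes, with a median of -0.51 log2 CPM from the gene's mean, against 31.8% of all genes. For replacement genes it was the lowest for 4 of 9, with a median of -0.04. The same counts of 10 and 4 were found with DESeq2 size factors and with total counts, all from the alignment-made tables. The FASTQ-made TPM, not rescaled between replicates here, gave a mixed order. In them Hist1h2bc (117.48, 135.66 and 199.47 TPM), Hist3h2a, Hist1h4i, Hist2h2aa1 and Hist1h2be were lowest in replicate 1. Hist2h2aa2, Hist1h1c, Hist2h2be, Hist1h2bg, Hist2h3c2 and Hist1h2ac were lowest in replicate 2. Without replicate 2, no histone gene of 22 kept ranged 2-fold between replicates 1 and 3. Of all 12005 genes kept then, 559 (4.66%) did. With 22 genes a count of 0 is near that share and says nothing particular about histone genes.

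**Figure D5:**
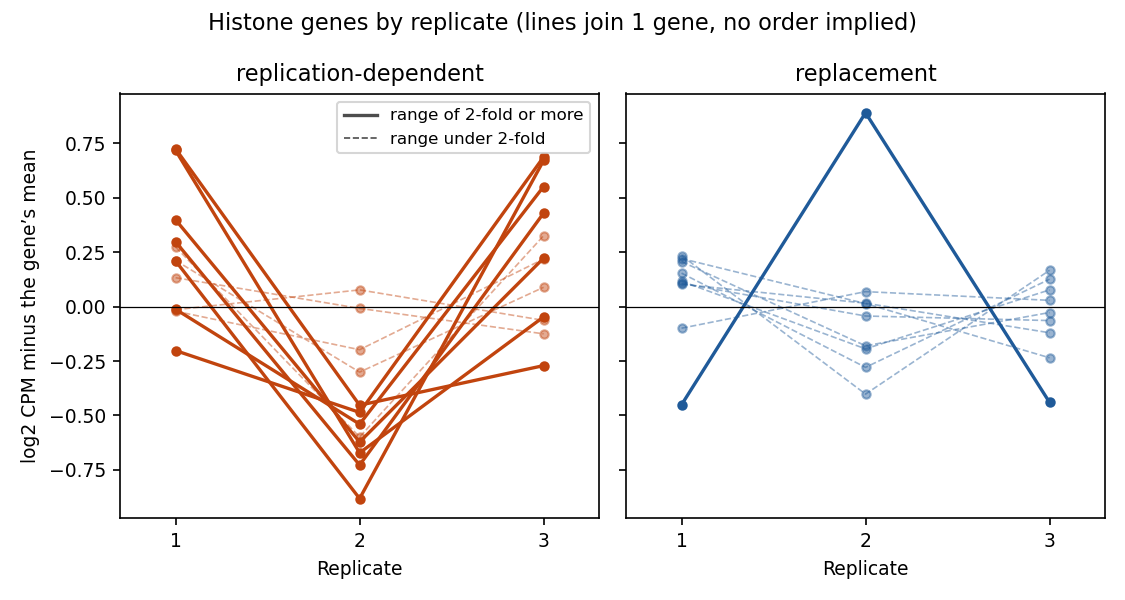
Log2 CPM of each kept histone gene minus its own mean, by replicate, for 12 replication-dependent genes (left) and 9 replacement genes (right); solid lines mark genes that ranged at least 2-fold. Most cluster genes dip in replicate 2, and the one solid line among replacement genes is H2afy2, which is highest there.

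Replicate 2 stood apart in other lists too. Of 25 S phase and proliferation genes, 17 were highest in replicate 2, as were 32.4% of all kept genes. Their median was 0.30 log2 CPM from their mean, and 10 of the 25 ranged at least 2-fold, against 10.4% of all kept genes. Pcna, the sliding clamp of DNA polymerase, had 191.44, 249.45 and 229.88 TPM, and the helicase subunit gene Mcm6 had 19.25, 27.09 and 25.79 TPM. Mki67, a marker of cycling cells, had 26.04, 10.9 and 21.09 TPM and was lowest in replicate 2. Of 10 neutrophil markers 3 were expressed, and the list summed to 110.81, 214.73 and 98.71 TPM. Most of that sum in replicates 1 and 3 was Csf3r, a cytokine receptor gene, at 98.31, 106.75 and 87.62 TPM, and without it the other 9 summed to 12.5, 108 and 11.1 TPM. S100a9 had 4.20, 57.97 and 5.10 TPM and S100a8 6.84, 39.35 and 5.36 TPM, both highest in replicate 2. Ngp and Ltf, below 1 TPM in replicates 1 and 3, had 7.78 and 1.73 TPM in replicate 2. Elane was at 0 in replicate 2, and Ly6g and Retnlg were at 0 in all replicates. The part of other cells, or of cell cycle state, in the low cluster histone levels of replicate 2 was not tested. In RNA from a mixed culture, fewer cells of a type and less RNA per cell cannot be told apart. All 14 macrophage markers were expressed, 1 of 8 germ cell and 1 of 6 B cell markers were, and none of the 7 T and NK cell, 7 erythroid and megakaryocyte or 6 stromal markers was.

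Genes whose products process histone mRNA, degrade it and load histones were expressed with few exceptions. The shares over all genes to set beside their counts are the 44.4% of protein-coding genes that were expressed, and, for a 2-fold range, the 10.4% of all kept genes and the 4.2% of those with a mean of at least 3 log2 CPM. With lists of this size a count of 0 ranging genes is near that last share and says nothing particular about them. Of 16 genes for 3′ end processing of histone mRNA, 15 were expressed, and none of the 15 kept ranged 2-fold. The highest were Srrt at 55.4 ± 8.13 TPM, Sympk, a scaffold of the cleavage complex, at 41.2 ± 7.85 TPM, and Mif4gd, a partner of Slbp in translation, at 38.4 ± 1.69 TPM. Slbp itself had 25.03, 25.11 and 23.72 TPM. Of the 15 kept genes of this list, 5 were lowest in replicate 2, as were 31.8% of all kept genes. Zfp473, named after its values were seen, was the gene of the list below 1 TPM. All 8 matched genes of histone mRNA decay were expressed, led by the uridylyltransferase Tut7 at 95.7 ± 9.41 TPM, Pnrc1 at 63.5 ± 9.34 TPM and the exosome nuclease Exosc10 at 38.1 ± 2.32 TPM. All 22 matched histone chaperone and assembly genes were expressed and none of them ranged 2-fold. Daxx, which loads H3.3, led at 255.5 ± 17.6 TPM, followed by the nucleolar chaperone Npm1 at 199 ± 15.4 TPM and Set at 156 ± 9.01 TPM.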

How the data were processed

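Polyadenylated RNA was measured in 3 replicates of 1 group. Per the file headers, the deposited gene and transcript tables hold expected counts and TPM computed by the authors from reads aligned to the transcriptome. Another deposited transcript table, made straight from FASTQ files, holds estimated counts and TPM. Per the deposited file lists, all use mm10 and annotation M21; for programs, versions and use of strand, the answer is not given in the sources used here. Rows that name no mouse gene took 0.107% to 0.178% of counts and were left out.

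Members came from symbols with a protein-coding transcript. They and all gene lists were chosen with earlier results of these data known. Named genes are the replacement members with at least 1 TPM in all replicates, the 12 highest replication-dependent members, members of either class at 1 TPM that ranged 2-fold, and, of other genes, the 3 highest of each pathway and S phase list plus Slbp and Pcna; marker lists are given by counts. Named outside this rule, after their values were seen, are Hist1h2bj, Hist1h4m, Hist1h2bq, Hist1h2br, Hist1h2be, Hist2h3c1, Hist1h2ac, Hist2h4, H2afy2 and Zfp473. So are the neutrophil markers, the germ cell histones at 0, and genes that share or overlap a member's sequence. Expected counts were rounded for edgeR 4.0.16 (R 4.3.3), kept by filterByExpr (minimum count 10), scaled by TMM and given as log2 CPM with a prior count of 2. Levels used log2(TPM + 1). Transcripts, coordinates and 31-base sequences, compared on both strands, came from GENCODE M21. The searches and ranges were tested on simulated data. DESeq2 1.42.0 gave alternative size factors. Intervals of counting are not given; floors cover counting error only.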

Additional observations from a re-analysis of the deposited data

Results flagged for a closer look

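Signal was found in histone-named genes that are outside the comparisons because they have no protein-coding transcript. Of 9 such genes, the processed pseudogene H3f3a-ps2 stood at 12.5 TPM on average, from 46.5, 43.7 and 27.6 counts in replicates 1, 2 and 3, above the 3 counts that a count of 0 allows. The FASTQ-made tables gave it 0.89, 0.19 and 0.21 TPM. Of its 31-base sequences 68.0% occur in H3f3a and none in H3f3b. The processed pseudogene H3f3c stood at 4.97 TPM on average, from 19.9, 20.0 and 6.5 counts, and at 0.46, 0.28 and 0.31 TPM in the FASTQ-made tables, with 79.3% of its 31-base sequences in H3f3a. The part of H3f3a reads in both values was not tested. The summed level of both pseudogenes is small beside the 919 TPM of H3f3a.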

How the results depend on the processing

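Under every alternative tried, replacement genes had the higher median level and the larger share of histone TPM. Other comparisons did change. The count of 13 expressed cluster genes was 5 without genes sharing at least 50% of their sequences and 6 at a threshold of 5 TPM, below the 8 replacement genes found under both; the replacement count stayed between 7 and 8 throughout. The median difference of 3.06 was 2.78 in FASTQ-made tables, 1.97 with H2afx counted as replication-dependent, 5.16 without testis- and germ cell-specific genes, 5.71 with a pseudocount of 0.1, 2.55 as a difference of means, 3.93 over genes with a mean of at least 1 TPM, 2.79 on log2(CPM + 1), and 3.83 over genes with at least 30 counts, an alternative chosen after seeing the data. The replacement share of 79.6% was 86.4% without the sharing genes, 86.2% on expected counts and, chosen after seeing the data, 85.6% without Hist2h2aa1 and Hist2h2aa2. The count of 8 genes ranging 2-fold of 21 kept was 23 of 56 with no filter on low counts, where 21.9% of 20285 genes ranged that far. The share of the 5 highest cluster genes, 90.6%, was 89.1% with H2afx counted as replication-dependent and 98.6% without the sharing genes. The share from transcripts of at least 1000 bases, 58.5%, was 21.7% at 1500 bases, so that a majority became a minority, since Hist1h2bc is 1156 bases long. Leaving out 1 replicate gave 13 to 14 expressed cluster genes, 8 replacement genes each time, a median difference of 2.95 to 3.13, a replacement share of 78.2% to 81.5%, 0 to 7 genes ranging 2-fold, 89.9% to 91.1% in the 5 highest genes and 56.1% to 59.8% from long transcripts; the 0 is without replicate 2. With 1 replicate left out, 4.54% to 6.01% of all kept genes ranged 2-fold. The split of the ranges at 3 log2 CPM was also chosen after seeing the data. Low counts limit Hist1h4k, Hist1h4h and Hist1h2bj, and counts on shared sequences limit the Hist2h2aa pair, Hist2h3c1, Hist1h2bg and Hist2h3c2.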
